A study of Mus musculus with 6 samples.

Results

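Heat shock proteins and chaperonins are described here through 10 genes, taken as the rows of the deposited expression table whose Ensembl identifier belongs to their symbol. The table held 55774 genes in all. The cytosolic group had 8 genes, namely Hspa1a, Hspa1b, Hspa8, Hsp90aa1, Hsp90ab1, Hspb1, Hsph1 and Dnajb1. The mitochondrial group had 2 genes, Hspd1 and Hspe1. RNA was sequenced from wild-type ICR mouse blastocysts. The embryos came from females of 6 to 8 weeks mated with males of 8 to 10 weeks, and were grown from the 2-cell stage for 75 h in CZB medium. All embryos received extracellular vesicles of human Fallopian tubes at 1e10 particles per mL, so a group without vesicles is not among the libraries. The vesicles came from women with endometriosis (oEV-EMT) or from women without it (oEV-ctrl), and the sample labels and the methods give the control donors a different other diagnosis. Each group had 3 libraries, each from 10 pooled blastocysts. No source used here states that the pools came from separate cultures or donors, so p-values measure the spread between these pools only.

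Chaperones bind proteins that are unfolded or newly made and help them to fold. In the cytosol, HSP70 proteins such as HSPA8 work with J-domain partners such as DNAJB1, which bring substrates, and with exchange factors such as HSPH1, which release nucleotide. HSP90 proteins receive many kinases and receptors from HSP70, and small heat shock proteins such as HSPB1 hold unfolded proteins without using ATP. In the mitochondrial matrix, HSPD1 (HSP60) forms a barrel in which imported proteins fold and HSPE1 (HSP10) is its lid. Heat shock factors bind repeats of the bases GAA and TTC in the promoters of many of these genes, and the inducible HSP70 genes Hspa1a and Hspa1b are known as early transcripts of the embryo at the 2-cell stage.

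Because this element is known from promoters of many such genes, RefSeq promoters were searched for the letters GAANNTTC and TTCNNGAA. The windows (GRCm38.p6) ran from 250 bases before to 50 after a transcript start. Both letter patterns were counted. Each pattern is its own reverse complement, so a search of either strand finds both, and neighbours that overlap by 3 bases were each counted. Of 32851 windows in the table, 4946 (15.1%) held at least 1 match. Windows were given for 7 of the 10 genes, and a match was found for Hspa1a, Hspa1b, Hspb1, Hspd1, Hspe1 and Hsph1. No match was found in either window of Dnajb1, nor in the window of another RefSeq start of Hspd1. The stretches printed here carry the matches before the start site in capitals, each 5′ to 3′ on the strand of its gene, with the shared stretch of Hspd1 and Hspe1 on the plus strand. They lie at chr1:55088053-55088082 (plus), chr5:135887801-135887830 (plus), chr5:149636351-149636380 (minus) and chr17:34959324-34959353 (minus), in this order.
Hspd1-Hspe1: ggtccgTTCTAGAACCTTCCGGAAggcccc
Hspb1: aGAAGTTTCcagatgggggcaGAACCTTCc
Hsph1: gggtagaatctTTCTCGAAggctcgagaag
Hspa1b: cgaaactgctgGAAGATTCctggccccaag

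From its RefSeq start at 55087932, Hspd1 lies head to head with Hspe1 on chromosome 1, with 215 bases between the starts. Hspd1 has another RefSeq start at 55088243, beyond that of Hspe1 at 55088148, and the window of that start held 0 matches. The 3 matches between the starts at 55087932 and 55088148 overlap in a row. They end 72 bases before the start of Hspe1 and 127 bases before that of Hspd1 at 55087932. Only 8 windows of the table (0.0244%) held at least 3 matches in such a row. Of these 8, 2 were the Hspe1 window and the Hspd1 window of the start at 55087932, which share the stretch. Another, named after it was seen, was that of Chordc1, an HSP90 co-chaperone, with 5 matches. The others were those of Kctd18, Arpc2, Gm38873, Fam149a and Gm41230, which are in none of the chaperone lists used here. Chordc1 had 21.3, 14.0 and 14.5 FPKM with oEV-EMT and 9.75, 27.0 and 12.8 with oEV-ctrl, and its groups overlapped. The windows of Hspa1a and Hspa1b were identical at 296 of 300 bases. In GENCODE M21 the stretch between Hspd1 and Hspe1 also lies within the first exon of an alternative Hspd1 transcript. A match describes letters only, and binding of a factor was not measured.

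The deposited values were taken as FPKM, that is fragments scaled to transcript length and to the fragments of the library, so that genes can be compared per length. Their sums ranged from 1293175 to 1551567 per library, and the depth derived from the smallest steps between low values differed up to 2.07 times, with no order by group. The unannotated entry new_gene48 held 15.3%, 16.0% and 19.0% of the sum with oEV-EMT and 31.5%, 19.7% and 21.3% with oEV-ctrl. Its share was thus lower in every oEV-EMT library. The 7 trophectoderm markers were all above the filter, with summed FPKM of 3123 to 4734 in oEV-EMT and 3075 to 4826 in oEV-ctrl, and none separated the groups. The 6 epiblast markers summed to 102 to 138 and 50.1 to 98.7, and 3 of them were higher in every oEV-EMT library. The 5 primitive endoderm markers summed to 30.3 to 46.9 and 30.6 to 36.1, with 2 higher in every oEV-EMT library. Of all tested genes, 18.1% were higher in every oEV-EMT library. The marker values are as deposited and were not compared under other scalings. Of the 7 cumulus and granulosa markers, 4 (Ptx3, Cyp19a1, Fshr and Amh) were listed at 0 in all libraries and none exceeded 0.344, and the highest of 3 oviduct markers was 0.296, with Foxj1 listed at 0. Among 5 oocyte markers only Zp3 was tested, and their sums were 1.22 to 1.81 and 0.371 to 0.909. Of the 3 blood markers, Hbb-bs and Ptprc were listed at 0 and Hba-a1 reached 2.22. The part of these differences in the chaperone values was not tested, and in pooled blastocysts fewer cells of a type and less RNA per cell cannot be told apart.

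Chaperone RNA was abundant in every library except that of Hspa1a and Hspa1b. Hsp90aa1 led with 2573 to 3672 FPKM and held 49.9% to 63.7% of the summed FPKM of the 10 genes. Hspa8, Hspe1 and Hsp90ab1 came next, then Hspd1 and Hspb1, and Hsph1 and Dnajb1 were lowest among those tested. Hspa8, Hspe1 and Hsp90ab1 overlapped in their values across libraries, so their order was not settled by these data, and the same held for Hspd1 and Hspb1. All values of Hsph1 were above all values of Dnajb1.

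**Figure D1:**
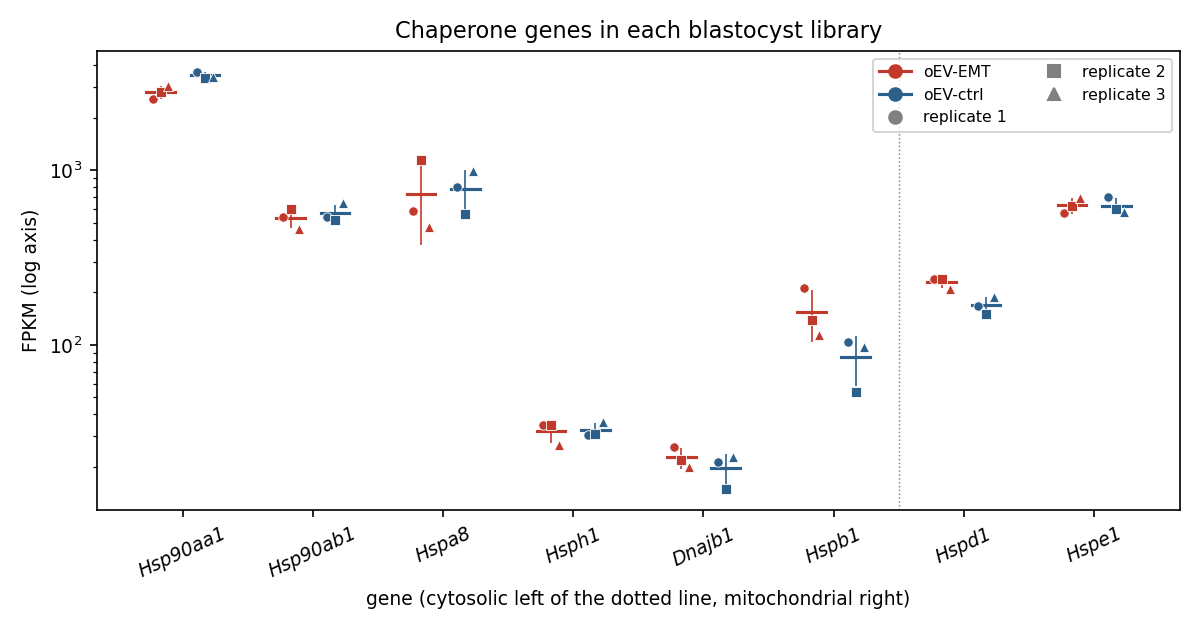
FPKM of the 8 tested chaperone genes on a log axis, 1 symbol per library (circle, square and triangle for replicates 1, 2 and 3), with horizontal lines at the group means and vertical lines for 1 SD (n = 3 per group). Hsp90aa1 lies lower in all oEV-EMT libraries (2573 to 3033) than in all oEV-ctrl libraries (3388 to 3672), Hspb1 and Hspd1 lie higher, and Hspa1a and Hspa1b, at most 0.163, are not drawn.

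No chaperone gene passed both thresholds, which were an adjusted p of at most 0.05 and a log2 fold change of 1 or more in either direction. Of the 10 genes, 8 had at least 1 FPKM in at least 3 libraries and were tested. With limma and Benjamini-Hochberg adjustment, 0 of the 8 and 0 of all 11924 tested genes (0%) passed, and the lowest adjusted p was 0.234 among the 8 and 0.0934 among all. At an unadjusted p of at most 0.05, Hspb1 and Hspd1 were higher in oEV-EMT, against 12.8% of all tested genes that were higher and 2.55% that were lower by this measure, and no member was lower. The values of the groups did not overlap for 3 genes, beside 22.4% of all tested genes, with Hspb1 and Hspd1 higher (18.1% of all) and Hsp90aa1 lower (4.34%) in oEV-EMT. The median log2 fold change of the 8 genes was -0.0099, beside 0.17 for all tested genes, and 5 of the 8 were under the latter value. The count of 2 at an unadjusted p of at most 0.05 became 0 without oEV-EMT replicate 1 or without oEV-ctrl replicate 2, and 1 without oEV-EMT replicate 2 or without oEV-ctrl replicate 1. Under median-of-ratios scaling the genes at an unadjusted p of at most 0.05 were Hspb1, higher, and Hsp90aa1, lower, and under upper quartile scaling Hsp90aa1 alone, lower. These scalings brought the median of all genes to 0.012 and -0.045 and the share of higher genes among unadjusted calls from 83.4% to 50.5% and 36.4%.

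**Figure D2:**
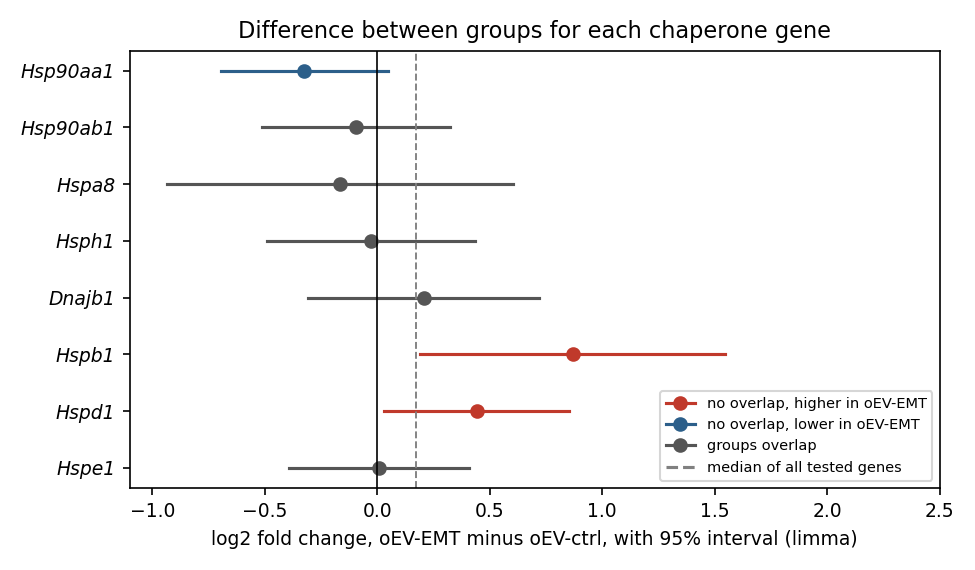
Log2 fold change (oEV-EMT minus oEV-ctrl, on log2(FPKM + 1)) of each tested chaperone gene, with the 95% interval from limma as a bar, the solid line at 0 and the dashed line at 0.17, the median of all tested genes. The intervals of Hspb1 (0.19 to 1.55) and Hspd1 (0.030 to 0.85) lie above 0, that of Hsp90aa1 (-0.70 to 0.047) reaches just past it, and the signs of Hsp90ab1, Hsph1, Dnajb1 and Hspe1 turn under at least 1 other scaling between libraries.

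The HSP90 pair differed in level and, in the values as deposited, in how the groups lay. Hsp90aa1, the inducible cytosolic HSP90 (ENSMUSG00000021270, chr12:110690605-110702728, minus strand, GRCm38), had 2573, 2792 and 3033 FPKM with oEV-EMT and 3672, 3388 and 3437 with oEV-ctrl. All oEV-EMT libraries were below all oEV-ctrl libraries, at 2799 ± 230 against 3499 ± 152 FPKM (mean ± SD, n = 3 each, exact two-sided permutation p = 0.1, the smallest that 3 against 3 libraries allow). The log2 fold change was -0.32 ± 0.17 (SE), with an adjusted p of 0.380 by limma with Benjamini-Hochberg adjustment. This gene varied little within groups, since only 2.21% of tested genes had a smaller within-group SD. Its expression ranked between 44 and 62 of all genes of a library.

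Hsp90ab1, the constitutive partner (ENSMUSG00000023944, chr17:45567775-45573271, minus strand), had 538, 601 and 463 FPKM with oEV-EMT and 543, 519 and 645 with oEV-ctrl. The groups overlapped, and the log2 fold change was -0.093 with a 95% interval of -0.51 to 0.33 (adjusted p = 0.838, limma). Its sign was not fixed, at 0.0012 after scaling to equal totals, 0.0058 without oEV-EMT replicate 3 and 0.0012 without oEV-ctrl replicate 3. Under median-of-ratios and upper quartile scaling it was -0.29 and -0.36. Both genes of the pair were then lower in every oEV-EMT library. Hsp90aa1 RNA exceeded Hsp90ab1 RNA by 4.78, 4.65 and 6.55 times with oEV-EMT and by 6.77, 6.53 and 5.33 times with oEV-ctrl, so these ratios overlapped.

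Hsp90aa1 shares identical 50-base stretches with other annotated genes, among them Gm12346 and Gm5844, and 47.5% of its own stretches are found elsewhere. Gm12346 had 281, 284 and 298 FPKM with oEV-EMT and 405, 403 and 378 with oEV-ctrl, and thus lay the same way as Hsp90aa1. Hsp90aa1 held 82.8% of the FPKM summed over these genes, and the sum gave a log2 fold change of -0.33. Reads of near-identical copies may have been split between them. No gene shared at least 10% of its stretches with Hsp90ab1.

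The HSP70 system was carried by Hspa8, the constitutive cytosolic HSP70 (ENSMUSG00000015656, chr9:40800984-40810087, plus strand), whose exons overlap 3 small nucleolar RNA genes. It had 582, 1142 and 475 FPKM with oEV-EMT and 803, 559 and 992 with oEV-ctrl. Both the highest and the lowest library were oEV-EMT, so the oEV-ctrl values lay within the oEV-EMT range. Hspa8 was the most variable of the tested chaperones, with 91.1% of tested genes having a smaller within-group SD and a 2.40-fold range over libraries. The log2 fold change was -0.17 with a 95% interval of -0.93 to 0.60 (adjusted p = 0.841, limma), and it turned to 0.094 without oEV-EMT replicate 3 and to 0.024 without oEV-ctrl replicate 3.

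Hspa8 held the smallest share of the 8 tested genes when summed with the genes that share its sequence. Among these, Gm15459 shares 34.6% of the stretches of Hspa8 and had 610, 886 and 555 FPKM with oEV-EMT and 357, 425 and 655 with oEV-ctrl. Hspa8 held 54.2% of the summed FPKM. The sums were 1251, 2092 and 1062 with oEV-EMT and 1225, 1048 and 1713 with oEV-ctrl, and they gave a log2 fold change of 0.11 in place of -0.17. The sum holds the expression of these genes themselves as well as any shared reads, and how shared reads were assigned was not tested.

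The partners of HSP70 were expressed at lower levels. Dnajb1, a J-domain protein that stimulates the HSP70 ATPase (ENSMUSG00000005483, chr8:83608193-83612653, plus strand), had 26.1, 22.0 and 19.9 FPKM with oEV-EMT and 21.3, 15.0 and 22.7 with oEV-ctrl. Hsph1, the HSP110 exchange factor (ENSMUSG00000029657, chr5:149614287-149636376, minus strand), had 34.6, 35.0 and 26.6 against 30.4, 30.9 and 36.4 FPKM. Both overlapped between groups in the values as deposited. The log2 fold change was 0.21 with a 95% interval of -0.31 to 0.72 for Dnajb1 (adjusted p = 0.698, limma), and it was -0.048 under upper quartile scaling. For Hsph1 it was -0.027 with an interval of -0.49 to 0.44 (adjusted p = 0.961, limma), and positive after scaling to equal totals (0.063) and without replicate 3 of oEV-EMT (0.097) or of oEV-ctrl (0.052). Under median-of-ratios and upper quartile scaling Hsph1 gave -0.22 and -0.29 and was lower in every oEV-EMT library. Neither gene had a copy that shared at least 10% of its stretches.

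The inducible HSP70 genes were close to absent in all pools. Hspa1a (ENSMUSG00000091971, chr17:34969190-34972156, minus strand) had 0.0237, 0 and 0.0182 FPKM with oEV-EMT and 0.0189, 0.0475 and 0.0305 with oEV-ctrl. Hspa1b (ENSMUSG00000090877, chr17:34956436-34959238, minus strand) had 0.0711, 0.0392 and 0.00708 against 0.163, 0.0434 and 0.0554 FPKM. Neither reached 1 FPKM in any library, so neither was tested and no fold change is given. In units of the smallest step between values of single-transcript genes, which would be 1 fragment if whole fragments were counted, Hspa1a had at most 3.43 and Hspa1b at most 8.12. Both genes are single exons, and 62.3% of the 50-base stretches of Hspa1b occur in Hspa1a. Gm20481 overlaps Hspa1a on the opposite strand and was listed at 0 in every library, and the sources used here do not say whether strand was used in counting.

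Hspb1, the small heat shock protein also called HSP25 in the mouse (ENSMUSG00000004951, chr5:135887919-135889563, plus strand), had the largest log2 fold change of the 8 tested genes. It had 212, 140 and 114 FPKM with oEV-EMT and 104, 53.9 and 97.2 with oEV-ctrl. All oEV-EMT libraries were above all oEV-ctrl libraries, although the lowest of the former and the highest of the latter were close. The means were 155 ± 51.3 and 85.0 ± 27.1 FPKM (SD, n = 3 each, exact two-sided permutation p = 0.1). The log2 fold change was 0.87 ± 0.31 (SE), a fold of 1.83, with an adjusted p of 0.234 by limma with Benjamini-Hochberg adjustment (0.0172 unadjusted).

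Hspb1 varied widely within groups, with a smaller SD in 86.6% of tested genes and a 3.94-fold range over libraries. Leaving out 1 library gave log2 fold changes of 0.57 (without oEV-ctrl replicate 2) to 1.07 (without oEV-EMT replicate 3). The direction held under every scaling, while upper quartile scaling gave 0.60 and overlapping groups. Its copy Hsp25-ps1 shares 48.8% of its stretches and had 63.3, 40.4 and 36.1 FPKM with oEV-EMT and 25.9, 14.5 and 26.7 with oEV-ctrl. The groups of the copy did not overlap either, and the sum over Hspb1 and its copies gave 0.91. The 2 matches to the heat shock element shown for Hspb1 begin 117 and 97 bases before its start.

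The mitochondrial pair, whose genes share the promoter stretch shown above, did not lie the same way between groups. Hspd1, the HSP60 chaperonin (ENSMUSG00000025980, chr1:55077835-55088243, minus strand), had 237, 240 and 210 FPKM with oEV-EMT and 167, 150 and 189 with oEV-ctrl. All oEV-EMT libraries were above all oEV-ctrl libraries, at 229 ± 16.2 against 169 ± 19.5 FPKM (SD, n = 3 each, exact two-sided permutation p = 0.1). The log2 fold change was 0.44 ± 0.19 (SE), a fold of 1.36, with an adjusted p of 0.295 by limma with Benjamini-Hochberg adjustment (0.0380 unadjusted).

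The sign for Hspd1 held under every alternative tried, from 0.18 under upper quartile scaling to 0.53 after scaling to equal totals. Under median-of-ratios and upper quartile scaling its log2 fold change was 0.25 and 0.18, with unadjusted p of 0.210 and 0.348 in limma. The pseudogene Hspd1-ps3, which shares 38.0% of the stretches of Hspd1, had 16.4, 19.3 and 15.4 FPKM with oEV-EMT and 9.64, 9.67 and 12.04 with oEV-ctrl. It was thus also higher in every oEV-EMT library. Hspd1 held 92.8% of the summed FPKM, and the sum gave 0.46.

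Hspe1, the co-chaperonin that closes the HSP60 barrel (ENSMUSG00000073676, chr1:55088132-55091307, plus strand), had 568, 623 and 697 FPKM with oEV-EMT and 698, 601 and 579 with oEV-ctrl. The groups overlapped fully, with means of 629 ± 64.7 and 626 ± 63.7 FPKM (SD, n = 3 each). The log2 fold change was 0.0077 with a 95% interval of -0.39 to 0.41 (adjusted p = 0.988, limma). It became -0.19 and -0.26 under median-of-ratios and upper quartile scaling, and -0.068, -0.019 and -0.046 without oEV-EMT replicate 3, oEV-ctrl replicate 2 and oEV-ctrl replicate 3. AC117239.2 shares 17.9% of the stretches of Hspe1 and had 321, 221 and 424 FPKM with oEV-EMT and 207, 277 and 263 with oEV-ctrl, which overlapped. Hspe1 held 68.7% of the FPKM summed with the genes that share its sequence. The sum gave a log2 fold change of 0.11 in place of 0.0077. The sums were 889, 844 and 1121 with oEV-EMT and 905, 879 and 842 with oEV-ctrl, and they overlapped.

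Hspe1 RNA exceeded Hspd1 RNA in all 6 libraries, by 2.40, 2.60 and 3.31 times with oEV-EMT and by 4.18, 4.001 and 3.06 times with oEV-ctrl. The ratio was lower in 2 of the oEV-EMT libraries than in every oEV-ctrl library, and the remaining oEV-EMT library lay above oEV-ctrl replicate 3. Annotated exons of the pair overlap by 112 bases on opposite strands, and fragments from this overlap cannot be assigned without strand.

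The cytosolic genes had larger summed FPKM than the mitochondrial genes in every library, with no settled difference between them in average change. The summed FPKM of the cytosolic genes was 3966, 4731 and 4131 with oEV-EMT and 5173, 4566 and 5231 with oEV-ctrl. The summed FPKM of Hspd1 and Hspe1 was 805, 863 and 907 against 865, 751 and 768. Each of these sums overlapped between groups. The cytosolic share of both sums was 83.1%, 84.6% and 82.0% with oEV-EMT and 85.7%, 85.9% and 87.2% with oEV-ctrl, and was thus lower in all oEV-EMT libraries. This share is led by Hsp90aa1, which carries most of the cytosolic sum, and it leaves out the genes that share sequence with the members. With these added to each member, the share in oEV-EMT replicate 2 was above that in oEV-ctrl replicate 2, so the groups overlapped.

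On the log2(FPKM + 1) scale, where each gene counts alike, oEV-EMT minus oEV-ctrl was 0.22 for the mean of the 2 mitochondrial genes and 0.078 for that of the 6 tested cytosolic genes, beside the median of 0.17 for all tested genes. After scaling to equal totals the mitochondrial value was 0.32 and the cytosolic value 0.17. Under median-of-ratios and upper quartile scaling the mitochondrial value was 0.029 and -0.041 and the cytosolic value -0.12 and -0.19, so neither direction was kept under every scaling. The cytosolic value was also -0.058 without oEV-ctrl replicate 2. The mitochondrial mean was 8.52, 8.60 and 8.59 with oEV-EMT and 8.42, 8.24 and 8.38 with oEV-ctrl, without overlap as deposited but with overlap under median-of-ratios and upper quartile scaling. The mitochondrial minus the cytosolic mean was 0.65, 0.65 and 1.03 against 0.63, 0.79 and 0.47, which overlapped. The groups differed by 0.15 in this measure, beside a pooled SD of 0.19, so the difference was smaller than the spread between libraries. Without oEV-EMT replicate 3 it was 0.022 and without oEV-ctrl replicate 3 it was 0.065, and over the other libraries left out in turn it was at most 0.23.

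**Figure D3:**
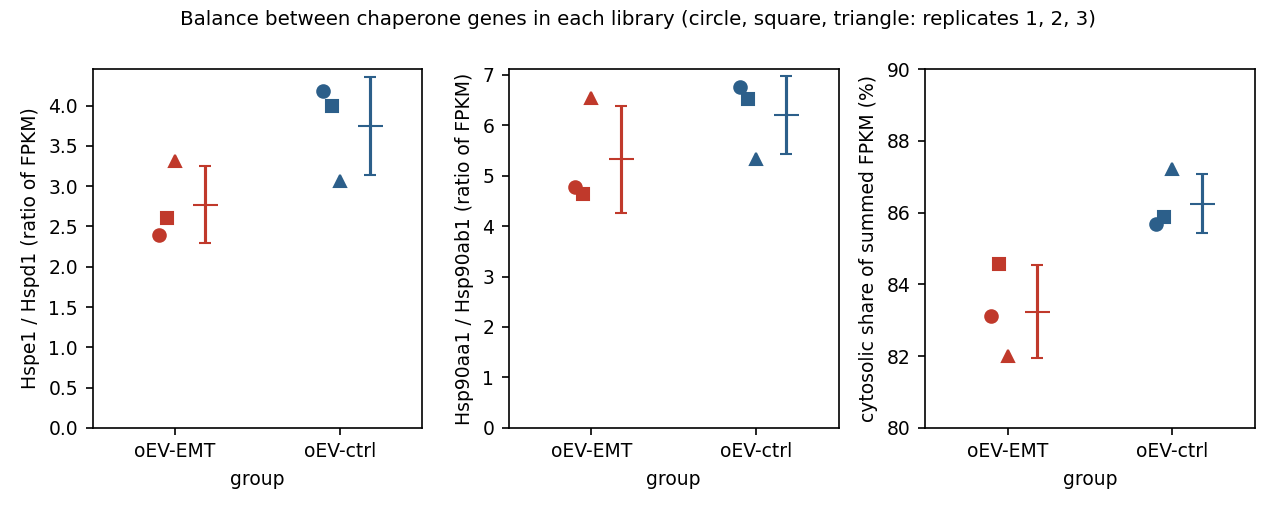
Ratio of Hspe1 to Hspd1 FPKM, ratio of Hsp90aa1 to Hsp90ab1 FPKM, and cytosolic share of the summed FPKM in percent (axis from 80 to 90), for each library (circle, square and triangle for replicates 1, 2 and 3), with the mean and 1 SD beside the points (n = 3 per group). Both ratios overlap between groups, whereas the cytosolic share is 82.0% to 84.6% with oEV-EMT and 85.7% to 87.2% with oEV-ctrl. This share leaves out the genes that share sequence with the members, and with these added the groups overlap.

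The chaperone genes did not move as 1 group over the libraries. Over the 6 libraries, the Pearson correlation of log2(FPKM + 1) among the 28 pairs of tested genes was highest for Hspb1 with Dnajb1 (r = 0.913), Hsp90ab1 with Hsph1 (r = 0.906) and Hspa8 with Hsp90ab1 (r = 0.899). Hspb1 with Hspd1 gave r = 0.886. The most negative pairs were Hsp90aa1 with Hspd1 (r = -0.871) and Hsph1 with Hspe1 (r = -0.795). These values describe 6 points that share library, depth and the difference between groups.

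Among all tested genes, those most like Hspd1 over the 6 libraries were new_gene176 (r = 0.9998), Slc25a20 (r = 0.998) and Nadk (r = 0.997). Those most like Hsp90aa1 were Rps19-ps2 (r = 0.993), Eif2s2 (r = 0.982) and Nudt7 (r = 0.979). Slc25a20 is the mitochondrial carnitine and acylcarnitine carrier, Nadk a cytosolic NAD kinase and Eif2s2 a subunit of a translation initiation factor. They were picked as the highest of 11924 genes over 6 points, which share library and depth.

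The wider chaperone network was described through 94 genes in 7 lists, of which 81 were tested. None had an adjusted p of at most 0.05 in limma. At an unadjusted p of at most 0.05, 8 were higher (4 without oEV-ctrl replicate 2) and 1 was lower in oEV-EMT, beside 12.8% and 2.55% of all tested genes. The groups did not overlap for 14 higher genes and 1 lower gene, beside 18.1% and 4.34% of all. Hsf1, which passed the filter through 1 group only, is among the higher genes in both counts. Under upper quartile scaling 3 were higher and 6 lower at an unadjusted p of at most 0.05, and 4 were higher and 10 lower without overlap. The median log2 fold change of the 81 genes was 0.19, close to the 0.17 of all genes. The medians given for the lists carry the shift of all genes, and under upper quartile scaling those of the HSP70 (-0.13), HSP90 (-0.013), TRiC and prefoldin (-0.0011), heat shock factor (-0.14) and mitochondrial (-0.12) lists were negative, while those of the small heat shock proteins (0.11) and of the endoplasmic reticulum (0.17) were not. The medians also moved with single libraries, from 0.054 (without oEV-EMT replicate 1) to 0.22 (without oEV-EMT replicate 3) for the HSP70 list and from 0.027 (without oEV-ctrl replicate 3) to 0.23 (without oEV-EMT replicate 1) for the heat shock factors. Relative to the median of all genes, no list changed sign under any scaling, but 4 lists did when single libraries were left out. These were the endoplasmic reticulum list (-0.021 without oEV-EMT replicate 1), the small heat shock proteins (-0.0093 without oEV-EMT replicate 3), the HSP70 list (0.0060 without oEV-EMT replicate 3 and 0.026 without oEV-ctrl replicate 1) and the heat shock factors (0.089 without oEV-EMT replicate 1 and 0.067 without oEV-ctrl replicate 2).

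Of 23 HSP70 cofactors and relatives, 17 were tested, 4 were higher without overlap and none was lower, with a median of 0.13. Bag2, an HSP70 co-chaperone, was highest at 0.61 (adjusted p = 0.272, limma) and Bag5, another BAG-domain protein, lowest at -0.49 (adjusted p = 0.387, limma). Of 14 HSP90 co-chaperones, all tested, 2 were higher without overlap, with a median of 0.24. Cdc37, which brings kinases to HSP90, was highest at 0.90, and Ptges3 (p23), which stabilises the closed form of HSP90, was lowest at -1.11. The values of Ptges3 were scattered, with 115, 30.6 and 27.8 FPKM in oEV-EMT and 61.7, 121 and 137 in oEV-ctrl, and its adjusted p was 0.431 (limma). Cdc37 also overlapped, with 28.8, 31.7 and 20.0 against 18.8, 6.15 and 21.1 FPKM. The 3 co-chaperones at an unadjusted p of at most 0.05, named after their values were seen, were Ppid (0.69), Stip1 (0.81) and Ppp5c (0.75). Under upper quartile scaling these gave 0.42, 0.55 and 0.52 and none had such a p, whereas Ptges3 (-1.37) and Unc45a (-0.54), which assists myosin folding, did.

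The cytosolic chaperonin TRiC, which folds actin and tubulin, and prefoldin, which delivers them to it, had 14 genes, all tested. The median was 0.26, and 3 genes were higher without overlap, beside 18.1% of all tested genes. All were TRiC subunits, namely Cct2 (0.32), Cct5 (0.37) and Cct7 (0.29), which were named after their values were seen. Under median-of-ratios scaling these gave 0.12, 0.18 and 0.094. Under upper quartile scaling the median of the 8 TRiC subunits was 0.014, beside -0.045 for all genes. Of the 8 TRiC subunits, 7 lay above the median of all genes, 6 under median-of-ratios and upper quartile scaling and 4 without oEV-EMT replicate 2. Pfdn6 was highest at 0.42 and Pfdn5 lowest at -0.12. No gene of this list had an unadjusted p of at most 0.05. Of 9 other small heat shock proteins, 5 were tested, and they lay between 0.18 (Cryab, a lens and muscle crystallin) and 0.45 (Hspb8).

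Of 5 heat shock factors and regulators, 3 were tested, and 2 with a filter of at least 1 FPKM in all libraries. Hsf1, the main factor that binds the element shown above, had 5.20, 3.57 and 2.97 FPKM with oEV-EMT and 0.891, 0.730 and 1.46 with oEV-ctrl. Hsf1 passed the filter only through oEV-EMT, since 1 of the 3 oEV-ctrl libraries reached 1 FPKM. Entry in this way favours genes that are higher in oEV-EMT, so its values are given as a description. Its log2 fold change was 1.27 on the log2(FPKM + 1) scale, which understates the change of a gene at such low levels. Hsf2, with a log2 fold change of -0.048, had 4.30, 2.42 and 2.02 against 2.34, 3.16 and 3.36 FPKM, and its groups overlapped. Of the chaperone genes with a match in a promoter window, Hspb1 and Hspd1 were higher without overlap, beside 18.1% of all tested genes. Hsph1 and Hspe1 overlapped in the values as deposited, and Hspa1a and Hspa1b had at most 0.163 FPKM. A link between Hsf1 and these genes was not tested.

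Of 17 further mitochondrial chaperones and proteases, all tested, 1 was higher and 1 lower without overlap, and the median was 0.12. Without single libraries this median was -0.063 (oEV-ctrl replicate 2), 0.033 (oEV-EMT replicate 2) and 0.21 (oEV-EMT replicate 3). Dnajc19, of the import motor, was lower in every oEV-EMT library (55.9, 46.0 and 46.7 FPKM against 65.6, 100 and 59.7). Its log2 fold change was -0.56, with an adjusted p of 0.298 by limma with Benjamini-Hochberg adjustment (0.0387 unadjusted). Trap1, the mitochondrial HSP90, was highest of this list at 0.42 with overlapping groups. Of 12 chaperones of the endoplasmic reticulum, 11 were tested, 2 were higher without overlap and the median was 0.42. This median was 0.12, 0.25 and 0.67 without oEV-EMT replicates 1, 2 and 3, and 0.22 and 0.28 without oEV-ctrl replicates 1 and 2. Pdia3, a disulphide isomerase that works with calnexin, had 211, 173 and 138 FPKM with oEV-EMT and 81.1, 78.9 and 119 with oEV-ctrl. Its log2 fold change was 0.90 (adjusted p = 0.164, limma). Hsp90b1, the HSP90 of the endoplasmic reticulum, was lowest at -0.17.

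**Figure D4:**
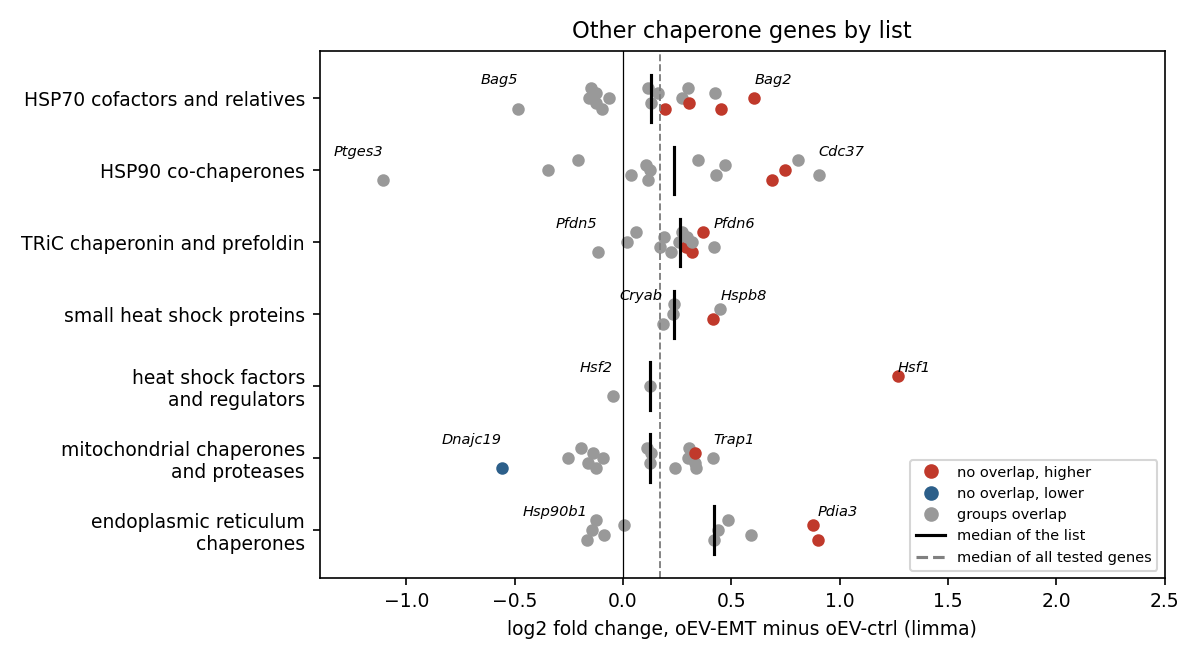
Log2 fold change (oEV-EMT minus oEV-ctrl, limma on log2(FPKM + 1)) of the 81 tested genes in 7 lists, 1 point per gene, in red or blue where the groups do not overlap, with a black line at the median of each list and a dashed line at 0.17, the median of all tested genes. The highest and lowest gene of each list is named. The medians lie between 0.12 and 0.42 (5 of the 7 turn negative under upper quartile scaling), Hsf1, tested through oEV-EMT only, is farthest to the right at 1.27 and Ptges3 farthest to the left at -1.11.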

How the data were processed

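RNA-seq libraries of blastocyst pools were compared between 2 groups of 3. Per the methods, polyadenylated RNA was captured with oligo (dT), reads were aligned to the genome (mm10 in the submitters' processing notes), transcripts were assembled with StringTie, and DESeq2 was used by the authors. The aligner and the program that computed the values are not given in the sources used here. The deposited values, called TPM in the methods, sum to 1293175 to 1551567 per library, where TPM would sum alike, and were taken as FPKM computed by the authors. All 10 members matched an identifier. Read totals are not known, so no counting interval is given.

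Genes with at least 1 FPKM in at least 3 libraries were fitted as log2(FPKM + 1) with limma 3.58.1 in R 4.3.3 (group term only, trended and robust variance, two-sided, Benjamini-Hochberg adjustment over all genes tested). The procedure was also run on simulated data with independent noise and changes in both directions. These held no shift shared by all genes, so they cannot show how the procedure behaves under such a shift. Exact permutation tests were used for single genes. Positions come from GENCODE M21 (GRCm38) and promoter windows from RefSeq. A gene was counted as sharing sequence where at least 10% of the 50-base stretches of either of the pair were identical, which was examined for the 10 members only. Genes named beyond the members were the highest and the lowest of each list and the 3 most correlated with Hspd1 and with Hsp90aa1. Ppid, Stip1, Ppp5c, Unc45a, Cct2, Cct5, Cct7 and Chordc1 were named after their values or windows were seen, as were the genes of the other windows with matches in such a row. The members and lists were chosen with earlier results of these data known. Alternatives covered scaling, pseudocount, filter, variance model, replicate block, summed copies and single libraries left out. Plots used matplotlib 3.10.9 under Python 3.11.15.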

Additional observations from a re-analysis of the deposited data

How the results depend on the processing

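The count of chaperone genes past both thresholds was 0 under every alternative run. The count at an unadjusted p of at most 0.05 (limma) was 2 (Hspb1 and Hspd1, higher) and became 1 under upper quartile scaling (Hsp90aa1, lower) and 1 with the replicate block (Hspb1), while under median-of-ratios scaling the 2 were Hspb1 and Hsp90aa1, and it ranged from 0 to 2 when single libraries were left out. The count without overlap was 3 and became 5 under median-of-ratios scaling, where Hsp90ab1 and Hsph1 were added as lower, and 4 under upper quartile scaling, where these were added and Hspb1 was lost, which left 3 lower and 1 higher. Over 16 alternatives for each of 8 genes, 112 of 128 values kept their sign and their side of the threshold and 16 turned. For Hspa8, -0.17 became 0.094 without oEV-EMT replicate 3, 0.024 without oEV-ctrl replicate 3 and 0.11 when summed with its copies, and single libraries left out gave -0.54 to 0.094. For Hsp90ab1, -0.093 became 0.0012 after scaling to equal totals, and 0.0058 and 0.0012 without replicate 3 of oEV-EMT and of oEV-ctrl (lowest -0.18 without a library). For Hsph1, -0.027 became 0.063 after scaling to equal totals, 0.0084 when new_gene entries and mitochondrially encoded genes were left out of the total, and 0.097 and 0.052 without replicate 3 of oEV-EMT and of oEV-ctrl (lowest -0.094 without a library). For Dnajb1, 0.21 became -0.048 under upper quartile scaling. For Hspe1, 0.0077 became -0.19 and -0.26 under median-of-ratios and upper quartile scaling, -0.068 without oEV-EMT replicate 3, and -0.019 and -0.046 without oEV-ctrl replicate 2 and replicate 3 (highest 0.089 without a library). The cause was not tested. Hspb1, Hspd1 and Hsp90aa1 kept their sign under all alternatives, with adjusted p (limma) of 0.163 to 0.669, 0.218 to 0.725 and 0.282 to 0.676, and the unadjusted p of Hsp90aa1 was 0.0352 and 0.0143 under median-of-ratios and upper quartile scaling. Over all genes, 0 passed both thresholds, beside 4 with a filter of at least 1 FPKM in all libraries, 21 with the replicate block, and 0 to 17 without single libraries. Libraries with the same replicate number did not deviate together, at correlations of 0.119, -0.0442 and 0.0388, so the pairing by number was not used for the main values, and the block gave Hspd1 an unadjusted p of 0.0825. Hspa1a and Hspa1b were summed as planned, at 0.0253 to 0.182 FPKM, with no fold change given at this level. Depth limits the genes near 0 most, and read totals are not known.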
